A study of Mus musculus with 10 samples.

Results

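The 10 genes described here encode myosin heavy and light chains: Myh6, Myh7, Myh7b and Myh10 among the heavy chains, Myl2, Myl7 and Myl9 among the regulatory light chains, and Myl3, Myl4 and Myl1 among the essential light chains. They were chosen by name, with earlier results of these data known. They are 10 of the 23337 genes of the count table, and all 10 were among the 11870 genes with enough reads to be tested. Read counts came from heart muscle cells (cardiomyocytes) of mice at postnatal day 14. The knockout group (Actn2 F/F, 5 samples) carried Cre target sites (floxed) in both copies of Actn2, which encodes alpha-actinin-2, a protein that crosslinks actin at the Z-line of the sarcomere. The control group (Actn2 F/+, 5 samples, called heterozygotes below) carried them in 1 copy. Both groups had received the same virus, AAV9-cTNT-Cre, on postnatal day 1, at 360000000 viral genomes per gram. This adeno-associated virus drives the recombinase Cre from the cardiac troponin T promoter. The cardiomyocytes of the controls could thus also receive Cre and lose 1 copy of Actn2. The share of cells reached by the virus was not measured here. The labels call the samples biological replicates and do not say whether mice were pooled. The p-values below set group differences against the variation between these samples.

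Myosin II is a motor of 2 heavy chains, whose heads pull on actin, each carrying a regulatory and an essential light chain on its neck. In the mouse ventricle the slow beta heavy chain (Myh7) of the fetus gives way after birth to the fast alpha chain (Myh6), and Myh7 is widely known to return in hearts under stress. Myl2 and Myl3 are the ventricular light chains, while Myl7 and Myl4 belong mainly to the atria after birth and are also made in the developing heart.

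Myh6 and Myh7 lie next to each other on chromosome 14, and each hosts a microRNA in an intron, as does Myh7b on chromosome 2. Their mature sequences (RefSeq, build GRCm38.p6) are shown because the rows of these hairpins are read below beside their host genes. Capitals mark the seed, bases 2 to 8.
mmu-miR-208a-3p (intron of Myh6): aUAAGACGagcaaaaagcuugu
mmu-miR-208b-3p (intron of Myh7): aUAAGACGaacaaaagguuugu
mmu-miR-499-5p (intron of Myh7b): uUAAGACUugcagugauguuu
The first pair share their seed and differ at 3 of 22 bases, none of them in the seed. The seed of miR-499-5p differs from theirs at 1 base.

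The 250 bases before the start of each member whose counts changed are shown next (RefSeq, GRCm38.p6, 5′ to 3′ on the strand of the gene) beside their RNA counts, which do not measure promoter activity.
Myh7, chr14:54994550-54994799, minus strand: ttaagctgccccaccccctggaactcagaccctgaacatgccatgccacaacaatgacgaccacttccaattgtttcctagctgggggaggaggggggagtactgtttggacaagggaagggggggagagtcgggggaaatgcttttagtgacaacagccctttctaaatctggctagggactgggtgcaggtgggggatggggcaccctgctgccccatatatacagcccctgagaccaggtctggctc
Myh10, chr11:68691665-68691914, plus strand: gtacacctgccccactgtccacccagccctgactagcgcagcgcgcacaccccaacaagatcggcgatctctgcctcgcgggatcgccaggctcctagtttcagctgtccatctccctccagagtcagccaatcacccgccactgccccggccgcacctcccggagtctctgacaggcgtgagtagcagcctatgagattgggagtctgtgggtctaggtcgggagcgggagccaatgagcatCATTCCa
Myl9, chr2:156775214-156775463, plus strand: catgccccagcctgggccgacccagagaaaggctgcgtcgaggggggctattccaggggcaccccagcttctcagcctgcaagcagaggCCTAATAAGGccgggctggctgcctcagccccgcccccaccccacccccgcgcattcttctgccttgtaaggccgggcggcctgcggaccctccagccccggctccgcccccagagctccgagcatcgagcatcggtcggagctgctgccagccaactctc
Capitals mark matches of the MCAT motif CATTCC (a TEAD factor motif) in Myh10 and of the CArG box (the motif of serum response factor) in Myl9. The script searched both strands for these, for the E-box CANNTG and for AGGTCA, in windows from 250 bases before to 50 bases after the start. In Myl9 the CArG box lay at -161 to -152 from the start, and 1.63% of 32851 promoter windows of the same length held one. The MCAT match of Myh10 lay at -7 to -2 and shared its last base with an E-box, and 14.7% of windows held MCAT. Myh7 held neither in the window shown and had 2 E-boxes there, a motif present in 72.3% of windows. In the window of another annotated start of Myh7, a MCAT match lay at -201 to -196 on the opposite strand. AGGTCA, found in 16.3% of windows, was in none of the 3 windows shown. Among the other members with a window at the table's start, Myl7 also held a CArG box (-61 to -52) with MCAT beside it (-70 to -65). MCAT lay on the opposite strand at -206 to -201 in Myh6 and at -80 to -75 in Myl1. The counts of Myl7, Myh6 and Myl1 were not called changed. At other annotated starts, Myl3 held a CArG box (-85 to -76) and MCAT at -177 to -172 (opposite strand) and at -149 to -144. AGGTCA lay in such windows of Myl2 and Myh7b. Myl3, Myl2 and Myh7b were not called changed either. A match is a description of letters and was not tested against the counts.

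Total counts ran from 8086656 to 25237696 per sample. Values are given in CPM, the reads of a gene relative to the TMM-scaled library total. A gene was called changed where edgeR's quasi-likelihood test gave a Benjamini-Hochberg adjusted p, over all tested genes, below 0.05. The targeted gene, Actn2, stood at 3366, 3454, 3474, 2930 and 2677 CPM in heterozygotes 1 to 5 and at 1286, 1250, 1145, 1182 and 1220 CPM in knockouts 1 to 5, with no overlap between the groups (log2 fold change -1.39, edgeR adjusted p 3.48e-07). The summed level of 8 cardiomyocyte markers, all detected, was 73124 to 85572 CPM in the heterozygotes and 71096 to 80984 CPM in the knockouts. Of these, Tnni3 (cardiac troponin I, -0.53 on the log2 scale, edgeR adjusted p 0.00165) and Atp2a2 (the calcium pump SERCA2, -0.40, 0.0243) were lower and Mybpc3 was higher in the knockouts. The call on Atp2a2 was lost under 6 of 18 other settings (adjusted p 0.0565 with library totals alone). All 3 ventricular markers were detected too, at sums of 137 to 158 and 117 to 127 CPM, and Kcnip2, a potassium channel subunit, was lower in the knockouts (-1.35 on the log2 scale, edgeR adjusted p 1.62e-05). The other ventricular markers were not called, with log2 fold changes of 0.31 for Irx4 (72.2 to 89.6 CPM, edgeR adjusted p 0.0991) and 0.05 for Hey2 (adjusted p 0.929). The call on Irx4 was made under 2 of 18 other settings, and the sign of Hey2 turned when single samples were left out. In bulk RNA, fewer cells of a type and less RNA per cell cannot be told apart.

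Of the 10 myosin genes, 3 were called changed: Myh7 and Myh10 were higher in the knockouts and Myl9 was lower. Over all tested genes, 18.9% were called in either direction, 10.2% higher and 8.64% lower in the knockout. That was 1216 higher and 1025 lower, and 1684 and 760 with scaling by library totals alone. In 2 of the 10, Myh7 and Myh10, the groups did not overlap, against 14.7% of all tested genes. The median log2 fold change of the 10 was 0.06, and that of all tested genes was 0.0023. The main ventricular chains Myh6, Myl2 and Myl3 were not called, and neither were Myh7b, Myl7, Myl4 and Myl1. The plot of the 10 genes by sample gives every value.

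**Figure D1:**
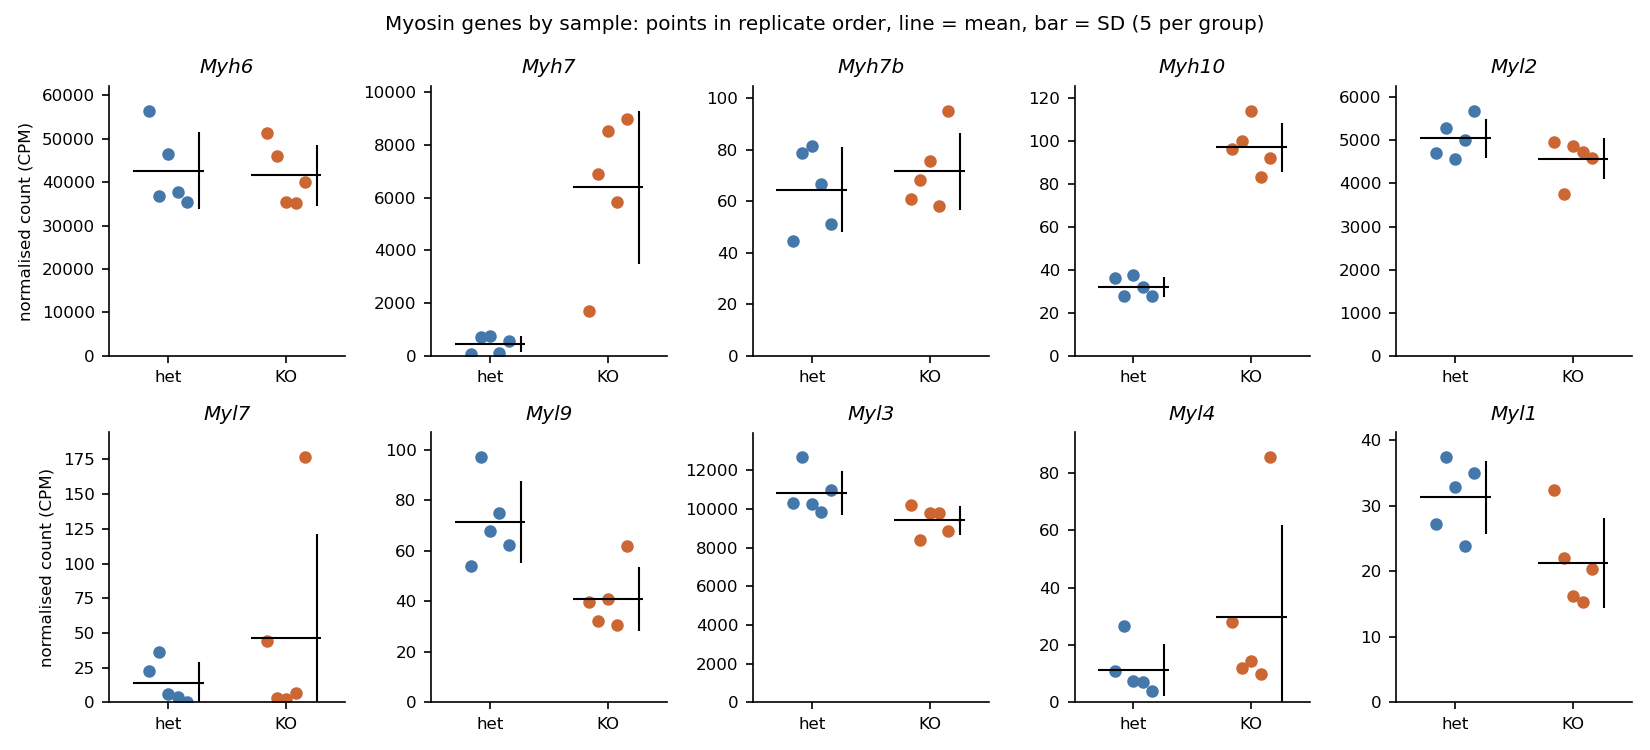
Normalised read count (CPM, linear axis from 0, own scale per panel) of each myosin gene in 5 heterozygote (het, blue) and 5 knockout (KO, orange) samples, with points in replicate order from left to right, the mean as a line and the SD as a bar that stops at 0. Myh7 and Myh10 part the groups, Myl9 overlaps only through knockout 5 (61.9 CPM), and knockout 5 carries the high means of Myl7 (177 CPM) and Myl4 (85.5 CPM).

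Myh6, the alpha heavy chain (chr14:54941921-54966607, minus strand, 40 exons, build mm10 as all positions of the count table), had more reads than the other 3 heavy chains in every sample. Its counts were 56474, 36782, 46586, 37830 and 35431 CPM in heterozygotes 1 to 5 and 51271, 46051, 35317, 35221 and 39982 CPM in knockouts 1 to 5. The ranges lay over each other, with heterozygote 1 and knockout 1 the highest of their groups. The means were 42620 ± 8893 and 41568 ± 7002 CPM (SD, n = 5 each), a difference smaller than the spread between samples (log2 fold change -0.04, SE 0.141, edgeR adjusted p 0.893). Its sign turned under scaling by library totals alone (0.044) and when heterozygote 1 (0.089), knockout 3 or knockout 4 was left out.

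Myh7, the beta heavy chain (chr14:54970688-54994549, minus strand, 41 exons), rose in the knockouts. It stood at 90.5, 698, 751, 126 and 560 CPM in heterozygotes 1 to 5 and at 1699, 6913, 8526, 5853 and 8979 CPM in knockouts 1 to 5. Every knockout lay above every heterozygote, knockout 1 was far below the other 4 knockouts, and heterozygotes 1 and 4 were far below the other 3. The means were 445 ± 316 and 6394 ± 2908 CPM (SD, n = 5 each), a 14.4-fold difference (log2 fold change 3.85, SE 0.593, edgeR adjusted p 0.000480). By log2 fold change it was the 19th highest of the 11870 tested genes. Leaving out 1 sample at a time gave log2 fold changes of 3.58 to 4.12. Its exons overlap those of an antisense gene, and reads in the overlap were lost to both genes because the counting did not use strand.

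Myh7 made up 0.160%, 1.86%, 1.59%, 0.333% and 1.56% of the Myh6 plus Myh7 reads in heterozygotes 1 to 5. In knockouts 1 to 5 the share was 3.21%, 13.1%, 19.4%, 14.3% and 18.3%. The lowest knockout thus lay above the highest heterozygote. Wilson 95% intervals, which cover counting error only, ran from 3.16% to 3.26% in knockout 1 and from 19.3% to 19.6% in knockout 3. The mean share was 1.10% ± 0.791 for the heterozygotes and 13.7% ± 6.43 for the knockouts (SD, n = 5 each), a difference of 12.6 percentage points. A two-sided exact permutation test gave p = 0.00794, the smallest possible with 5 samples against 5, and 0.0238 after Benjamini-Hochberg adjustment over 3 isoform shares. The genes were chosen with earlier results of these data known, and the share reuses the Myh7 counts called above. These p-values are thus not independent support for the Myh7 rise. Per kilobase of gene length, Myh6 and Myh7 together came to 7085 ± 1443 CPM per kb in the heterozygote and 7894 ± 883 CPM per kb in the knockout, so the summed level differed by less than the SD of the heterozygotes.

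**Figure D2:**
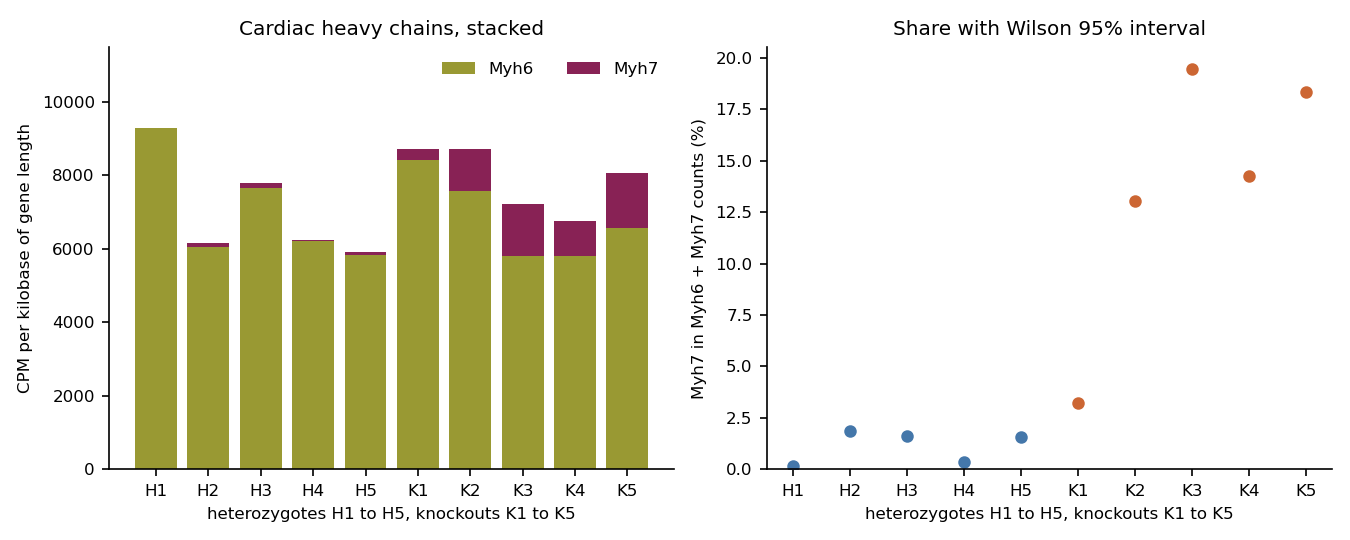
Left, Myh6 and Myh7 stacked, in CPM per kilobase of gene length, for heterozygotes 1 to 5 (H1 to H5) and knockouts 1 to 5 (K1 to K5), on an axis from 0. Right, the Myh7 share of Myh6 plus Myh7 reads in percent, with Wilson 95% intervals that are smaller than the points: 0.160% to 1.86% in the heterozygotes and 3.21% to 19.4% in the knockouts.

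The antisense gene D830015G02Rik and the hairpin Mir208b, chosen after their values were seen, were lower in the knockouts, where Myh7 was higher. D830015G02Rik (RefSeq symbol Mhrt, a long non-coding RNA on the plus strand, chr14:54968787-54974349) stood at 29.5, 48.7, 54.3, 57.4 and 53.9 CPM in heterozygotes 1 to 5 and at 25.7, 16.2, 23.1, 29.5 and 25.3 CPM in knockouts 1 to 5. All knockouts lay below all heterozygotes, though knockout 4 (29.454 CPM) and heterozygote 1 (29.526 CPM) nearly met. The difference was -1.02 on the log2 scale (SE 0.184, edgeR adjusted p 0.00150). Strand was not used in the counting, so reads of the antisense RNA and of unspliced Myh7 RNA that reach its exons cannot be told apart.

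Mir208b (chr14:54975700-54975776, minus strand, within an intron of Myh7) had 104, 19, 27, 41 and 32 reads in heterozygotes 1 to 5 and 26, 8, 13, 15 and 27 reads in knockouts 1 to 5. Scaled, that was 3.57 ± 0.911 and 1.53 ± 0.758 CPM (SD, n = 5 each), with knockout 1 inside the heterozygote range (log2 fold change -1.25, edgeR adjusted p 0.0175). Such reads lie over the hairpin and do not measure mature miR-208b-3p, and the RNA they came from was not tested. Mir208a, in an intron of Myh6, had 0 to 11 reads per sample and was not tested. Mir499, in an intron of Myh7b, had 0 reads in every sample.

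**Figure D3:**
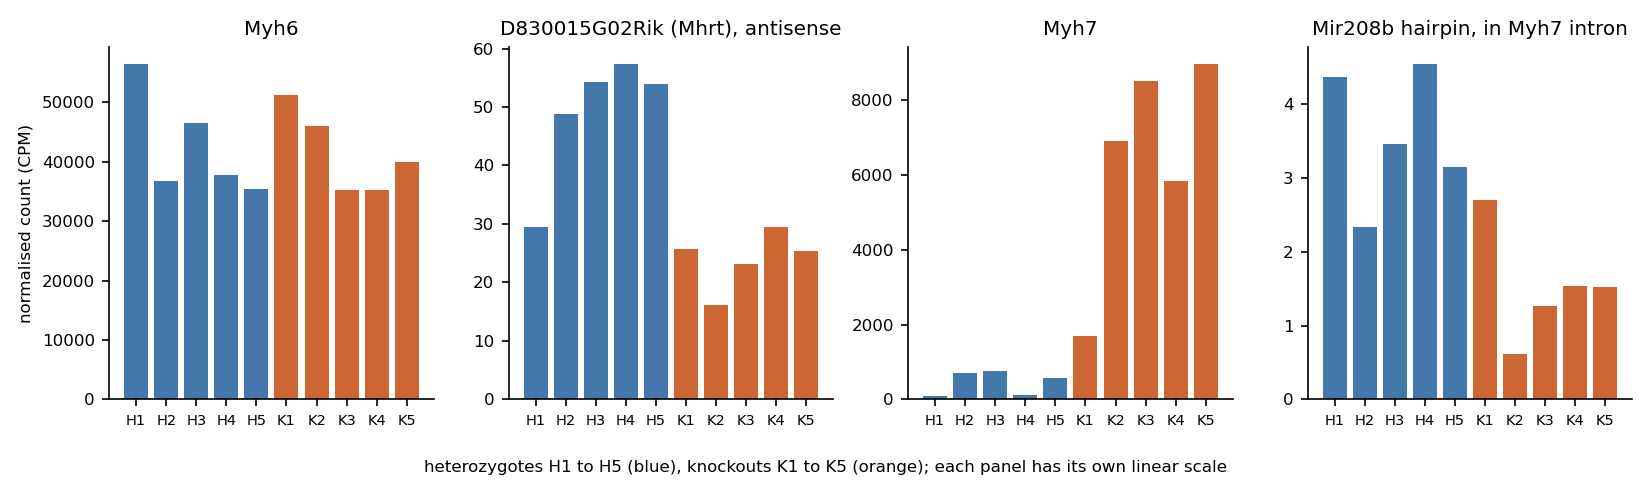
Normalised read count (CPM, linear axes from 0, own scale per panel) in heterozygotes 1 to 5 (H1 to H5, blue) and knockouts 1 to 5 (K1 to K5, orange) for 4 genes of chromosome 14. Myh7 is higher in every knockout, Myh6 overlaps between the groups, and D830015G02Rik is lower in every knockout (16.2 to 29.5 CPM).

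Myh7b (chr2:155611212-155634307, plus strand), an ancient relative of the cardiac heavy chains that hosts Mir499, did not part the groups. It stood at 44.5, 78.8, 81.4, 66.9 and 51.4 CPM in heterozygotes 1 to 5 and at 60.8, 68.3, 75.6, 58.2 and 95.3 CPM in knockouts 1 to 5. Heterozygote 1 was the lowest and knockout 5 the highest of the 10 samples, with the rest intermixed (log2 fold change 0.16, SE 0.176, edgeR adjusted p 0.589). Its exons overlap those of Trpc4ap on the other strand, so reads there were lost to both.

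Myh10, the heavy chain of nonmuscle myosin IIB (chr11:68691915-68816624, plus strand, 41 exons), a motor of cell shape and cytokinesis, rose with little scatter. It stood at 36.3, 27.8, 37.5, 31.9 and 27.6 CPM in heterozygotes 1 to 5 and at 96.1, 99.7, 114, 83.3 and 91.8 CPM in knockouts 1 to 5. The lowest knockout was above the highest heterozygote by more than the SD of either group. The means were 32.2 ± 4.64 and 97.0 ± 11.3 CPM (SD, n = 5 each), a 3.01-fold difference (log2 fold change 1.59, SE 0.117, edgeR adjusted p 8.80e-07). By adjusted p it ranked 23rd of all tested genes and by log2 fold change 136th. Leaving out 1 sample at a time gave 1.52 to 1.64.

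Nonmuscle heavy chains are also made by the other cells of the heart, so their markers were read in the same libraries. Of 7 fibroblast markers 6 were tested and 0 were called by edgeR (0 also at an unadjusted p below 0.05 and by DESeq2), and their sum was 296 to 489 CPM in the heterozygotes and 271 to 592 CPM in the knockouts. All 7 endothelial markers were tested. By edgeR 0 were called higher and 1 lower (Egfl7, -0.65 on the log2 scale, edgeR adjusted p 0.00612), while 7 had an unadjusted p below 0.05, all toward lower values, and DESeq2 called 4 lower. They had sums of 413 to 611 and 269 to 450 CPM. The blood and macrophage markers (5 of 6 in the table, 3 tested, with Csf1r called lower at -0.86, edgeR adjusted p 0.0216, lost under 2 of 17 other settings) summed to 9.94 to 23.1 CPM in the heterozygotes and 5.998 to 8.86 CPM in the knockouts. DESeq2 called 3 of them lower, Csf1r, Lyz2 and Ptprc (adjusted p 0.00824, 0.0228 and 0.0285). The part of these cell types in the Myh10 result was not tested.

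Other class II heavy chains were read from a list of 10 genes, of which 3 were tested and 0 were called by edgeR (0 also at an unadjusted p below 0.05). Nonmuscle Myh9 had a log2 fold change of -0.06 (edgeR adjusted p 0.854), whose sign turned under library totals alone (0.020), smooth muscle Myh11 of -0.65 (0.224) and nonmuscle Myh14 of 0.12 (0.603). The median of these 3 was -0.06. Myh15 had 0 reads in every sample. DESeq2, which kept lower counts, called 1 of the 10 higher: Myh8, the perinatal skeletal heavy chain, named here after its values were seen. It had 0, 0, 1, 0 and 1 reads in heterozygotes 1 to 5 and 2, 12, 12, 12 and 14 reads in knockouts 1 to 5 (DESeq2 adjusted p 0.000341).

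Myl2, the ventricular regulatory light chain (chr5:122100980-122106854, plus strand), did not part the groups. It stood at 4700, 5286, 4558, 5009 and 5693 CPM in heterozygotes 1 to 5 and at 4952, 3753, 4865, 4725 and 4603 CPM in knockouts 1 to 5. Knockout 2 was the lowest sample, and the other knockouts lay within the heterozygote range. The difference (log2 fold change -0.14, SE 0.0947) was not called (edgeR adjusted p 0.333).

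Myl9, a regulatory light chain of smooth muscle and nonmuscle myosin (chr2:156775464-156781657, plus strand, 4 exons), fell in the knockouts. It stood at 54.1, 97.1, 68.1, 75.0 and 62.4 CPM in heterozygotes 1 to 5 and at 39.8, 32.1, 40.8, 30.5 and 61.9 CPM in knockouts 1 to 5. Only knockout 5 reached the heterozygote range, where it lay above heterozygote 1 and just below heterozygote 5. The means were 71.3 ± 16.3 and 41.0 ± 12.5 CPM (SD, n = 5 each), a difference of -0.79 on the log2 scale (SE 0.192, edgeR adjusted p 0.0105). Without knockout 5 it was -0.99 (edgeR adjusted p 0.00108).

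Markers of smooth muscle and pericytes were read beside Myl9. Of 10 such genes, 9 were tested and 3 were called lower: Acta2 (smooth muscle actin, log2 fold change -1.82, edgeR adjusted p 3.98e-06), Smtn (smoothelin, -0.52, 0.00902) and Tagln (transgelin, -1.07, 0.0339). The call on Tagln was lost under 9 of 18 other settings. The list summed to 885 to 1334 CPM in the heterozygotes and 498 to 586 CPM in the knockouts. Acta2 and Smtn averaged 714 and 268 CPM in the heterozygotes and 202 and 187 CPM in the knockouts. Among the defining markers, Myh11 stood at 18.03 ± 7.996 and 11.4 ± 4.91 CPM (SD, n = 5 each, edgeR adjusted p 0.224), Lmod1 was below 1 CPM on average in both groups, and Cnn1 was at 1.63 ± 0.670 and 3.45 ± 1.91 CPM (log2 fold change 1.05, edgeR adjusted p 0.0806). The pericyte genes Rgs5, Notch3, Pdgfrb and Kcnj8 had log2 fold changes of -0.43 to -0.33 and were not called. Their part in the Myl9 result was not tested.

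Myl7, the atrial regulatory light chain (chr11:5896637-5898782, minus strand), had the largest SD relative to its mean of the 10 genes in both groups. It stood at 22.4, 36.1, 5.90, 3.996 and 0.197 CPM in heterozygotes 1 to 5 and at 44.4, 2.90, 2.15, 6.47 and 177 CPM in knockouts 1 to 5. Knockout 5 (3123 reads) was far above all others, while heterozygote 5 had 2 reads, and the remaining samples of both groups overlapped. The difference of 1.76 on the log2 scale (SE 1.07, edgeR adjusted p 0.278) became -0.00079 (adjusted p 1.00) without knockout 5. Myl7 took 0.273% ± 0.290 of the Myl2 plus Myl7 reads in heterozygotes and 0.969% ± 1.56 in knockouts (SD, n = 5 each), a difference of 0.695 percentage points (two-sided exact permutation p = 0.468, also 0.468 after adjustment over the 3 shares). Without knockout 5 the difference in the Myl7 share of Myl2 plus Myl7 was 0.013 points.

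Myl3, the ventricular essential light chain (chr9:110763681-110769794, plus strand), had the most reads per kilobase of the 10 genes. It stood at 10297, 12673, 10222, 9846 and 10986 CPM in heterozygotes 1 to 5 and at 10199, 8400, 9802, 9803 and 8876 CPM in knockouts 1 to 5. Knockouts 2 to 5 lay below every heterozygote and knockout 1 within their range. The difference of -0.20 on the log2 scale (SE 0.0896) was not called (edgeR adjusted p 0.141, unadjusted 0.0436).

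Myl4, the atrial and fetal essential light chain (chr11:104550663-104587219, plus strand), stood at 10.9, 26.8, 7.30, 7.10 and 3.84 CPM in heterozygotes 1 to 5. In knockouts 1 to 5 Myl4 was at 27.9, 12.1, 14.3, 9.85 and 85.5 CPM. Knockout 5 was again the highest, and heterozygote 2 lay above 3 of the knockouts. The difference of 1.45 on the log2 scale (SE 0.596, edgeR adjusted p 0.107) rested on single samples: it was 0.53 (adjusted p 0.491) without knockout 5 and 2.02 (adjusted p 0.0344) without heterozygote 2. Of Myl3 plus Myl4 reads, Myl4 took 0.0989% ± 0.0673 in heterozygotes and 0.323% ± 0.358 in knockouts (SD, n = 5 each), a difference of 0.224 percentage points (two-sided exact permutation p = 0.103, 0.155 after adjustment over the 3 shares). That difference in the Myl4 share of Myl3 plus Myl4 was 0.0668 points without knockout 5 and 0.252 points without heterozygote 2, where the adjusted exact permutation p was 0.0476.

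Of the 9 atrial markers, 3 were highest in the same library, knockout 5. Sln (sarcolipin, an inhibitor of the calcium pump in atrial muscle) stood at 72.5 CPM in knockout 5 and at 0 to 9.58 CPM elsewhere, and Dkk3 at 36.8 CPM against 1.08 to 8.47 CPM elsewhere. Bmp10, made by the atria, had 230 reads in knockout 5 and 0 to 2 reads in each other sample. The other 6 were not highest there: in knockout 5 Kcnj3 (6.62 CPM) and Nr2f2 (2.32 CPM) lay below every heterozygote, Nr2f1 was at 0.226 CPM, and Kcna5 (12.8 CPM), Stard10 (22.9 CPM) and Nppa (1680 CPM) were exceeded by 4, 2 and 2 other samples. The order of the samples below knockout 5 was knockout 1, heterozygote 2 and heterozygote 1 in Myl7 and in Sln. It was knockout 1, heterozygote 2 and knockout 3 in Myl4, and heterozygote 2, heterozygote 1 and knockout 1 in Dkk3, while Bmp10 had 0 reads in knockout 1. Of the 9, 7 were tested, and Nppa (3.99 on the log2 scale, edgeR adjusted p 7.11e-06) was called higher and Nr2f2 (-0.85, 0.0158) lower. The 9 summed to 109 to 303 CPM in the heterozygotes and 962 to 2307 CPM in the knockouts, mostly through Nppa, which ventricular muscle also makes. Their part in the Myl7 and Myl4 results was not tested.

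**Figure D4:**
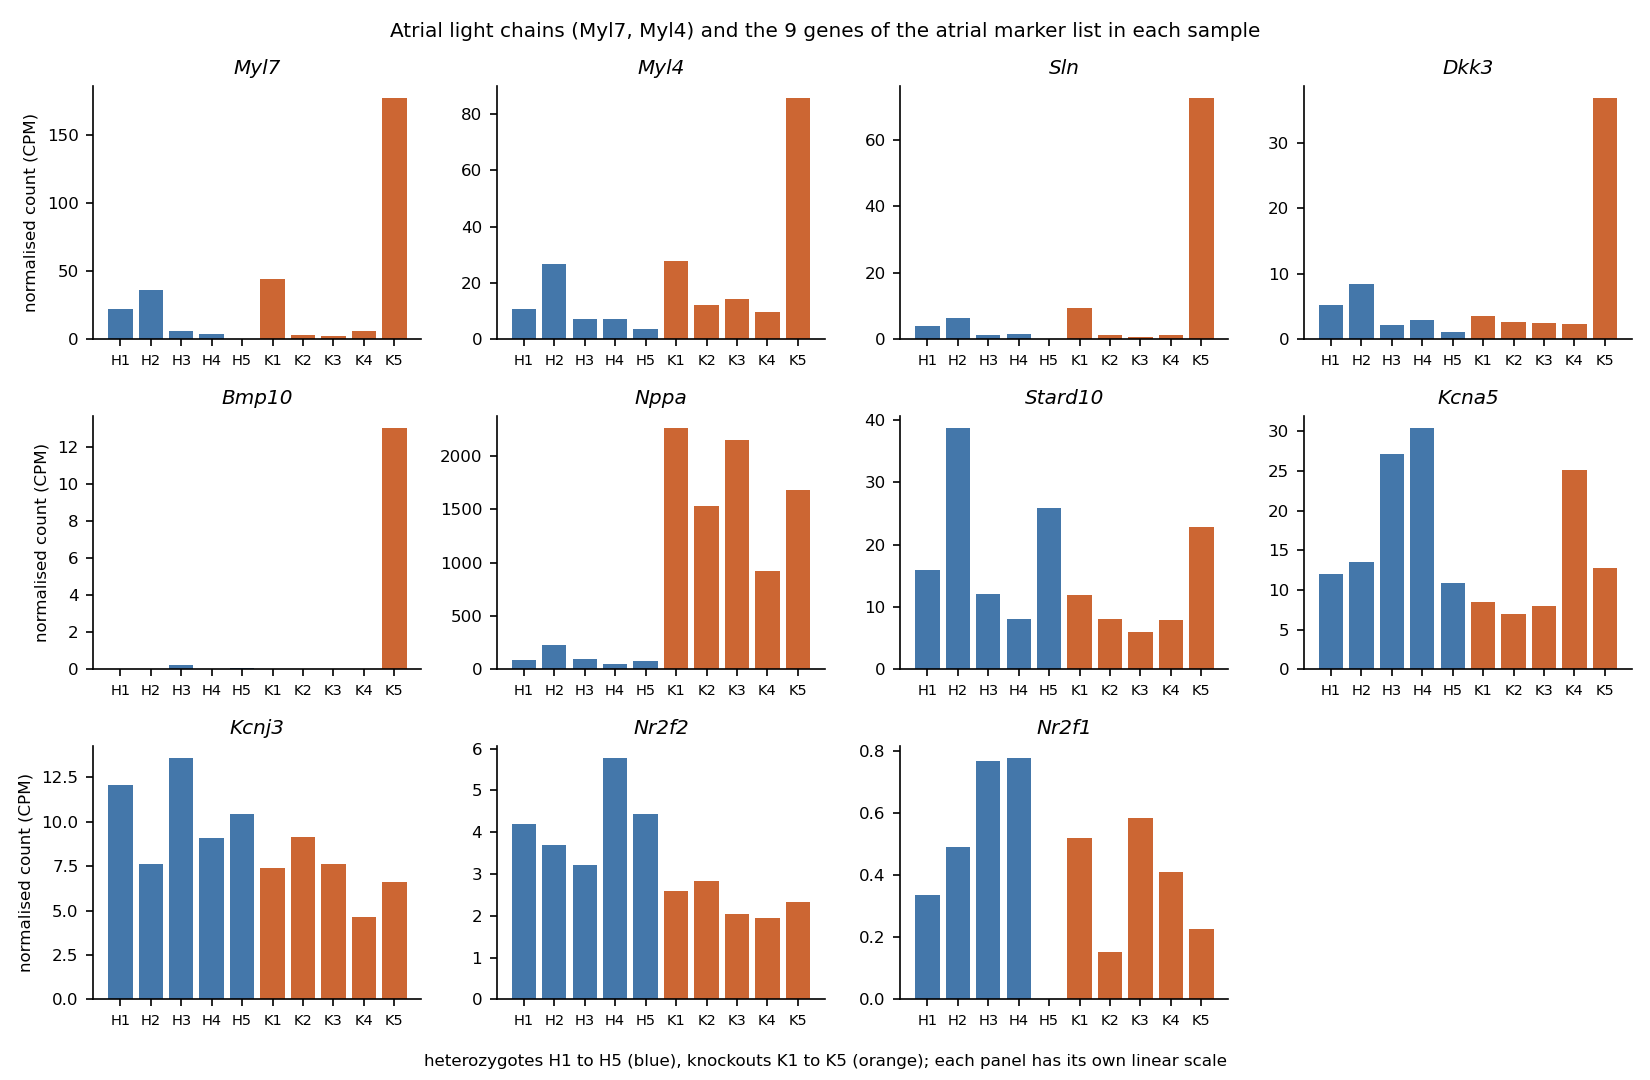
Normalised read count (CPM, linear axes from 0, own scale per panel) of the light chains Myl7 and Myl4 and of all 9 genes of the atrial marker list in heterozygotes 1 to 5 (H1 to H5, blue) and knockouts 1 to 5 (K1 to K5, orange). Knockout 5 is the highest sample for Myl7, Myl4, Sln, Dkk3 and Bmp10 (177, 85.5, 72.5, 36.8 and 13.01 CPM) and not for the other 6 genes.

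Myl1, the essential light chain of fast skeletal and embryonic muscle (chr1:66924296-66945056, minus strand), missed the threshold narrowly. It stood at 27.2, 37.5, 32.9, 23.9 and 35.0 CPM in heterozygotes 1 to 5 and at 32.5, 22.1, 16.2, 15.3 and 20.4 CPM in knockouts 1 to 5. In 4 knockouts Myl1 was below every heterozygote, while knockout 1 lay within their range. The difference of -0.55 on the log2 scale (SE 0.192, edgeR adjusted p 0.0592) was -0.75 (adjusted p 0.00684) without knockout 1. Of the 10 fast skeletal muscle markers 2 were tested and 0 were called by edgeR (0 also at an unadjusted p below 0.05 and by DESeq2), with sums of 3.94 to 8.47 CPM in the heterozygotes and 3.51 to 8.85 CPM in the knockouts.

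Per kilobase of gene length, levels in the heterozygotes ran from Myl3 (12032 CPM per kb) through Myl2 (7977) and Myh6 (7011) to Myh7 (73.6), Myl9 (65.9), Myl1 (28.2), Myl7 (23.3), Myl4 (12.7), Myh7b (10.5) and Myh10 (4.14). Neighbours in that order overlapped in range, except after Myl3, Myh6, Myl9 and Myh7b. In the knockouts the order was Myl3 (10486 CPM per kb), Myl2 (7235), Myh6 (6838), Myh7 (1056), Myl7 (78.8), Myl9 (37.9), Myl4 (33.9), Myl1 (19.2), Myh10 (12.5) and Myh7b (11.6), and only the steps after Myl3 and Myh6 were free of overlap. The 3 regulatory light chains together came to 8066 ± 725 and 7351 ± 792 CPM per kb in heterozygote and knockout (SD, n = 5 each), and the 3 essential ones to 12073 ± 1263 and 10539 ± 824 CPM per kb.

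**Figure D5:**
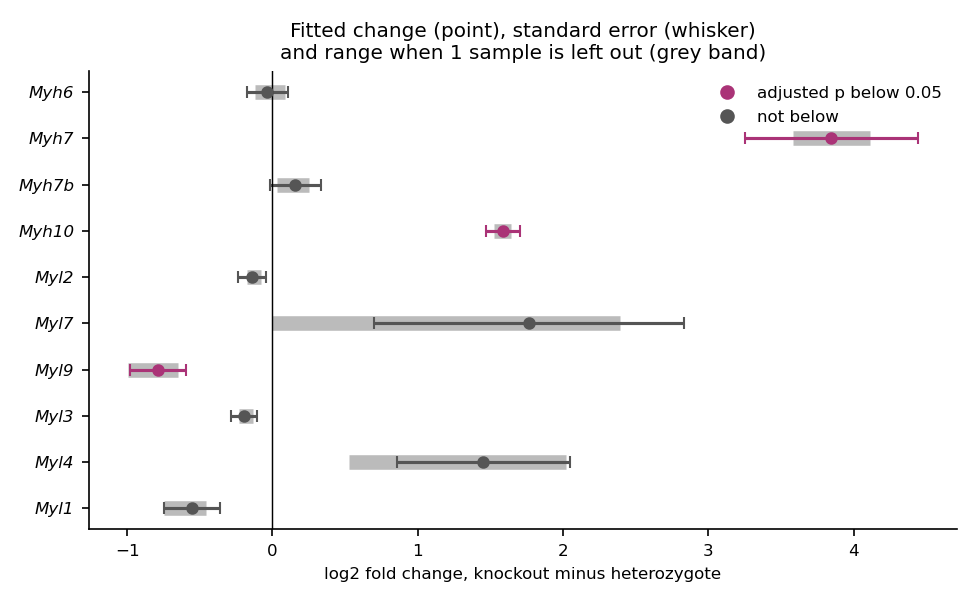
Log2 fold change of the 10 genes, knockout minus heterozygote (point), with the standard error (whisker) and the range when 1 sample is left out (grey band). Purple marks the 3 genes with an edgeR adjusted p below 0.05, Myh7 (3.85), Myh10 (1.59) and Myl9 (-0.79), and the grey band of Myl7 reaches from -0.00079 to 2.39.

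Among the other light chains, 6 of 7 listed genes were in the table, 4 were tested and 1 was called. Myl12a, a regulatory light chain of nonmuscle myosin, was at 605 to 799 CPM in the heterozygotes and 1058 to 1454 CPM in the knockouts, with no overlap (log2 fold change 0.72, SE 0.116, edgeR adjusted p 0.000691). The median log2 fold change of the 4 was 0.33. Myl6, the essential light chain of nonmuscle and smooth muscle myosin, had a log2 fold change of -0.06 and Myl12b of -0.38, neither of them called (edgeR adjusted p 0.800 and 0.255), and the sign of Myl6 turned under library totals alone (0.012).

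Of 10 genes of myosin kinases and of the myosin phosphatase, 9 were tested, 2 were called higher and 2 lower, with a median log2 fold change of -0.05. Higher were the targeting subunits of the phosphatase, Ppp1r12b (log2 fold change 0.47, edgeR adjusted p 0.00987) and Ppp1r12a (0.45, 0.0198). Lower were the light chain kinases Mylk4 (49.8 ± 9.29 to 23.6 ± 8.43 CPM, SD, n = 5 each, log2 fold change -1.08, edgeR adjusted p 0.00172) and Mylk (-0.77, 0.0457). The call on Mylk was lost under 7 of 18 other settings and that on Ppp1r12a under 2. Mylk3, the cardiac light chain kinase, stood at 911 ± 116 and 948 ± 81.9 CPM (log2 fold change 0.06, edgeR adjusted p 0.743). Mylk2, the skeletal kinase, was too low for edgeR's filter and is named after its values were seen, with 0, 1, 0, 1 and 1 reads in heterozygotes 1 to 5 and 8, 9, 9, 9 and 26 reads in knockouts 1 to 5 (DESeq2 adjusted p 0.000275).

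All 6 genes of the myosin folding list were tested and 1 was called: Hsp90aa1, a cytosolic chaperone, rose from 64.6 ± 14.7 to 103 ± 15.7 CPM (SD, n = 5 each, log2 fold change 0.67, edgeR adjusted p 0.00587). The median of the list was 0.09. It includes Murc (log2 fold change 0.15, edgeR adjusted p 0.369), which encodes a caveola protein and not a myosin folding factor. The muscle myosin chaperone Unc45b had a log2 fold change of 0.02 (edgeR adjusted p 0.892), whose sign turned with upper-quartile scaling.

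Of 8 genes of thick-filament proteins that bind myosin, 5 were tested, 3 were called higher and none lower, with a median log2 fold change of 0.43. Mybpc2, the fast skeletal form of myosin-binding protein C, stood at 50.8, 49.4, 32.9, 28.6 and 22.8 CPM in heterozygotes 1 to 5 and at 360, 290, 301, 232 and 269 CPM in knockouts 1 to 5. Every knockout of Mybpc2 was well above every heterozygote (log2 fold change 2.97, SE 0.210, edgeR adjusted p 6.63e-07). The cardiac form Mybpc3 (0.43, edgeR adjusted p 0.0117) and the M-band protein gene Myom1 (0.37, 0.0260) rose less, and Myom1 lost its call in 2 of 18 other settings. Mybph was too low for edgeR's filter and is named after its values were seen. It had 0, 0, 1, 1 and 0 reads in heterozygotes 1 to 5 and 2, 16, 1, 9 and 10 reads in knockouts 1 to 5 (DESeq2 adjusted p 0.00722).

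The genes whose profile over the 10 samples was nearest to Myh7, among the 8368 tested genes that averaged 10 CPM or more, were Nppa (natriuretic peptide A), Shisa4 and AW551984, at root-mean-square differences of 1.10, 1.17 and 1.20 in centred log2 CPM. Nppa did not share the low value of Myh7 in knockout 1, where it was at its highest (2262 CPM). Nearest to Myl9 were Mapkapk3 (0.208), Lamb3 (0.226) and Doc2g (0.237). These differences are not scaled to how much a gene varies, so values around Myl9 and around Myh7 do not compare closeness.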

How the data were processed

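Cardiomyocytes were isolated by collagenase perfusion and sorted by flow cytometry, and libraries were made from 10 ng of RNA with SMART-Seq v4 (8 PCR cycles) and Nextera XT from 500 pg of cDNA, per the labels' protocols; the sort gate is not stated there. The deposited counts are whole reads per gene made by the authors with featureCounts 1.5.1, 4 threads and no other option, on a UCSC mm10 annotation archived in 2012, per the file headers. Those defaults ignore strand and drop reads with several alignments or several overlapping genes, which can lower the counts of near-identical chains. Per the submitters' processing notes, tools were CASAVA 1.8, STAR 2.5.3a, featureCounts and Subread 1.5.2. The alignment names in the header are those of another aligner, which leaves the aligner uncertain. The table has 14 count columns, of which 4 match no sample and were not used.

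Genes were filtered by filterByExpr (minimum count 10, minimum total 15), scaled with TMM and tested over all 10 samples without covariates by edgeR 4.0.16 in R 4.3.3 (glmQLFit and glmQLFTest, with Benjamini-Hochberg adjustment over all tested genes, called below 0.05). Log2 CPM used a prior count of 1. The SE of an edgeR log2 fold change was derived from the test, as the absolute change divided by the square root of the quasi-likelihood F statistic. Isoform shares were compared with two-sided exact permutation tests (scipy 1.17.1). In single samples, 3 counts of the total are 1.19e-05% to 3.71e-05%, and intervals and such floors cover counting error only. The edgeR fit was tested on simulated counts, in which far fewer genes changed than were called here, as many up as down. The share tests and DESeq2 were not tested that way. The members and all gene lists were chosen with earlier results of these data known. Named genes are the 10 members, called genes of each list (other heavy chains, other light chains, myosin kinases and phosphatase, folding, myosin-binding and the cell type markers; at most 6 per list by adjusted p) and the 3 nearest profiles of the largest rise and fall. Genes outside that rule were named after their values were seen. Same-numbered samples of the groups correlated at 0.112, -0.0124, -0.0604, 0.185 and 0.141 in their deviations. These correlations cannot settle whether the numbers pair samples, and the main fit treated the samples as unpaired. Alternatives were RLE, upper-quartile and library-total scaling, no filter, a mean of 5 CPM, the replicate block, a Y-linked covariate, DESeq2 1.42.0, length-scaled shares and leaving out each sample. Protein sequences were not used here.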

Additional observations from a re-analysis of the deposited data

Results flagged for a closer look

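A sample was singled out where its gap to the nearest other sample of its group, divided by the range of the group, passed Dixon's limit for 5 samples (0.71). Of 28 groups of 5 examined, 5 passed it. For independent groups with normal values chance gives about 1 in 20, or 1.4. The groups here mixed log2 CPM, percent shares and totals, and the shares reused the same genes, so 1.4 is only a rough guide. Heterozygote 1 had 25237696 reads in all, with the next heterozygote at 10309615. Myh7 in knockout 1 stood at 10.73 log2 CPM, with the next knockout at 12.52. Myl2 in knockout 2 stood at 11.87 log2 CPM, with the next at 12.17. In knockout 5 the Myl7 share of Myl2 plus Myl7 was 3.70% (Wilson 95% interval 3.57% to 3.83%), with the next knockout at 0.888%. The Myl4 share of Myl3 plus Myl4 was also far from the rest in knockout 5, at 0.954% (0.907% to 1.00%) against 0.273% in the next knockout. In log2 CPM, neither Myl7 nor Myl4 passed the limit in knockout 5.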

How the results depend on the processing

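Over 18 settings, 169 of 180 combinations of member and setting kept the direction and side of the threshold, 6 newly passed it, 5 changed sign and 0 lost a call. Myh7, Myh10 and Myl9 kept their calls in all 18. Myh6 changed sign with library totals alone (0.044) and ran from -0.12 to 0.089 when single samples were left out, and Myl7 ran from -0.00079 (without knockout 5) to 2.39. Myl1 passed the threshold with upper quartiles (-0.58, edgeR adjusted p 0.0486), with DESeq2 (-0.56, 0.0311), without heterozygote 4 (-0.64, 0.0352) and without knockout 1 (-0.75, 0.00684). With the replicate block, samples were matched by number, and 2 of 5 correlated best with their own. Calls then numbered 2182 and Myl1 passed (-0.58, edgeR adjusted p 0.0339). The Myh7 share of Myh6 plus Myh7 differed by 12.6 points with an exact sign-flip p of 0.0625, the smallest that test allows (0.188 adjusted). The difference in the Myl4 share of Myl3 plus Myl4 ran from 0.0668 (without knockout 5) to 0.280 points when single samples were left out, and it was 0.252 without heterozygote 2 (exact permutation p = 0.0476, adjusted). Library totals alone moved the median of all genes to 0.0839 and the calls to 1684 higher and 760 lower, from 1216 and 1025. Calls over all genes numbered 1699 to 2258 with 1 sample left out. With single samples left out, Dkk3 ran from -0.55 to 1.69, Myh9 from -0.19 to 0.083, Myl6 from -0.12 to 0.091, Hey2 from -0.11 to 0.26 and Unc45b from -0.029 to 0.072. With library totals Myh9 (0.020) and Myl6 (0.012) changed sign, as did Unc45b with upper quartiles (-0.0026). Of 47 other genes named, 30 kept sign and side in every setting that tested them, and 17 did not: these 5, Mylk, Ppp1r12a, Myom1, Tagln, Atp2a2 and Csf1r, which lost calls, and Pdgfrb, Irx4, Kcnj3, Kcna5, Stard10 and Lyz2, which gained them. The causes were not tested.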

Other observations

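Mybphl, a myosin-binding protein of atrial muscle that was too low for the test and is named after its values were seen, had 322 reads in knockout 5, the sample with the highest Myl7 and Myl4. The other samples had 58, 41, 7, 2 and 0 reads in heterozygotes 1 to 5 and 42, 3, 0 and 5 reads in knockouts 1 to 4.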
